A study of Homo sapiens with 8 samples.

Results

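TP53INP1 and BBC3 are p53-linked genes of cell death and autophagy, TP53INP2 is the autophagy paralogue of TP53INP1, and the surroundings of these 3 genes were searched for binding of the transcription factor RFX7. RFX7 was profiled by chromatin immunoprecipitation followed by sequencing (ChIP-seq) in RPE-1, an established line of human retinal pigment epithelial cells that carries an introduced telomerase. Cells were treated for 24 h with 10 µM Nutlin-3a, which blocks MDM2 from binding p53 and so stabilises p53, or with its solvent DMSO. Each treatment had 2 samples precipitated with 3 µg of an RFX7 antibody and 2 input samples, and all 8 came from this cell line. The authors deposited 1 list of peaks (regions called as enriched) per treatment. No value therefore has a replicate error, and nothing below tests the effect of treatment across samples. The members are all peaks of both lists whose nearer edge lay within 10 kb of the body of these genes as annotated on GRCh38. There were 5 of them among 1790 peaks, 0 among 556 in the DMSO list and 5 among 1234 in the Nutlin-3a list. The members were chosen by these deposited peak positions, so their positions and heights are given as a description, with no test.

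TP53INP1 encodes a small protein that is induced by p53, binds LC3 family proteins of the autophagosome, and favours cell cycle arrest and death under stress. TP53INP2, its paralogue, is also known as DOR and moves from the nucleus to autophagosomes when cells are starved. BBC3 encodes PUMA, a BH3-only protein of the BCL2 family that binds the prosurvival members and so releases BAX and BAK to permeabilise mitochondria. It is a classical direct target of p53. RFX7 belongs to the RFX family of winged-helix factors, which recognise the X-box, a DNA element built around GTTGCC-like letters.

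At TP53INP1, 2 neighbouring Nutlin-3a peaks marked the high-coordinate end of the gene, and the DMSO list had none. The gene occupies chr8:94925972-94949378 and is known to be transcribed from the reverse strand, so this end holds its start. The first peak was narrow, at chr8:94948923-94949115 (193 bp), and lay wholly inside the gene. Its fold enrichment was 3.48 and its −log10 p 9.40. The second began 89 bp further on, at chr8:94949205-94950046, and was 842 bp wide. It straddled the gene end, with 174 bp inside the gene and 668 bp beyond it. Its fold enrichment was 4.35, which is 1.248 times that of the first, and its −log10 p was 145. The 2 peaks were thus alike in fold enrichment and far apart in −log10 p. Fold enrichment is the authors' deposited value for a peak, and the control behind it is not given in the sources used here.

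The summits of the TP53INP1 peaks were 193 bp apart, at 339 and 146 bp inside the gene end. In the first peak the summit was at 60.1% of the width from the left. In the second the deposited summit was 27 bp from the left edge, at 3.21% of the width, whereas the middle of that peak was 247 bp outside the gene. A summit in the leftmost 10% was also deposited for 32 of the 110 isolated Nutlin-3a peaks at least 300 bp wide, this peak among them. Isolated peaks are those with fewer than 5 other listed regions within 500 kb. Both peaks were equally inside NDUFAF6, which encodes an assembly factor of mitochondrial complex I, since the whole of TP53INP1 lies within the annotated body of that gene. The nearest boundary of NDUFAF6 was 53240 bp from the summit of the first peak and 53433 bp from that of the second. CCNE2, which encodes cyclin E2, was the next protein-coding gene, 52230 bp from the edge of the first peak. Measured to boundaries, TP53INP1 was therefore the nearest gene to both.

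At BBC3 the Nutlin-3a list held 3 peaks, 1 inside the gene and 2 beyond its 5′ end, and the DMSO list held none. The gene lies at chr19:47220824-47232860 on the reverse strand. The peak inside it was at chr19:47230312-47230634 (323 bp), with a fold enrichment of 5.82 and a −log10 p of 25.7. Its summit was 2320 bp from the 5′ end of the gene body. The hairpins of MIR3190 and MIR3191, microRNA genes annotated within BBC3, lay 3291 and 3293 bp from this peak.

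The other 2 BBC3 peaks lay upstream of the gene. The second was at chr19:47239338-47240047 (710 bp), 6478 bp from the gene body, with a fold enrichment of 5.69 and a −log10 p of 34.4. The third was at chr19:47241055-47241798 (744 bp), 8195 bp from the gene body, with a fold enrichment of 17.3 and a −log10 p of 128. It began 1007 bp after the end of the second, whose fold enrichment was 3.04 times lower. The highest of the BBC3 peaks was thus the one farthest from the gene, and the other 2 differed little in fold enrichment, with a ratio of 0.977.

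Another annotated gene was nearer than BBC3 to both upstream peaks. They lay inside LOC124904731, a long non-coding RNA gene on the reverse strand at chr19:47238675-47244195, and their summits were 4516 and 2865 bp downstream of its start. Among protein-coding genes BBC3 was nearest to both. CCDC9, transcribed away from BBC3 on the forward strand, was 16478 bp from the second peak and 14727 bp from the third. SAE1, which encodes a subunit of the SUMO-activating enzyme, lay 28702 bp from the second on the other side. Of the 425 isolated Nutlin-3a peaks, 57 (13.4%) had a summit inside non-coding genes only, as these 2 had, and 132 (31.1%) had it inside a protein-coding gene, as the first had.

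**Figure D1:**
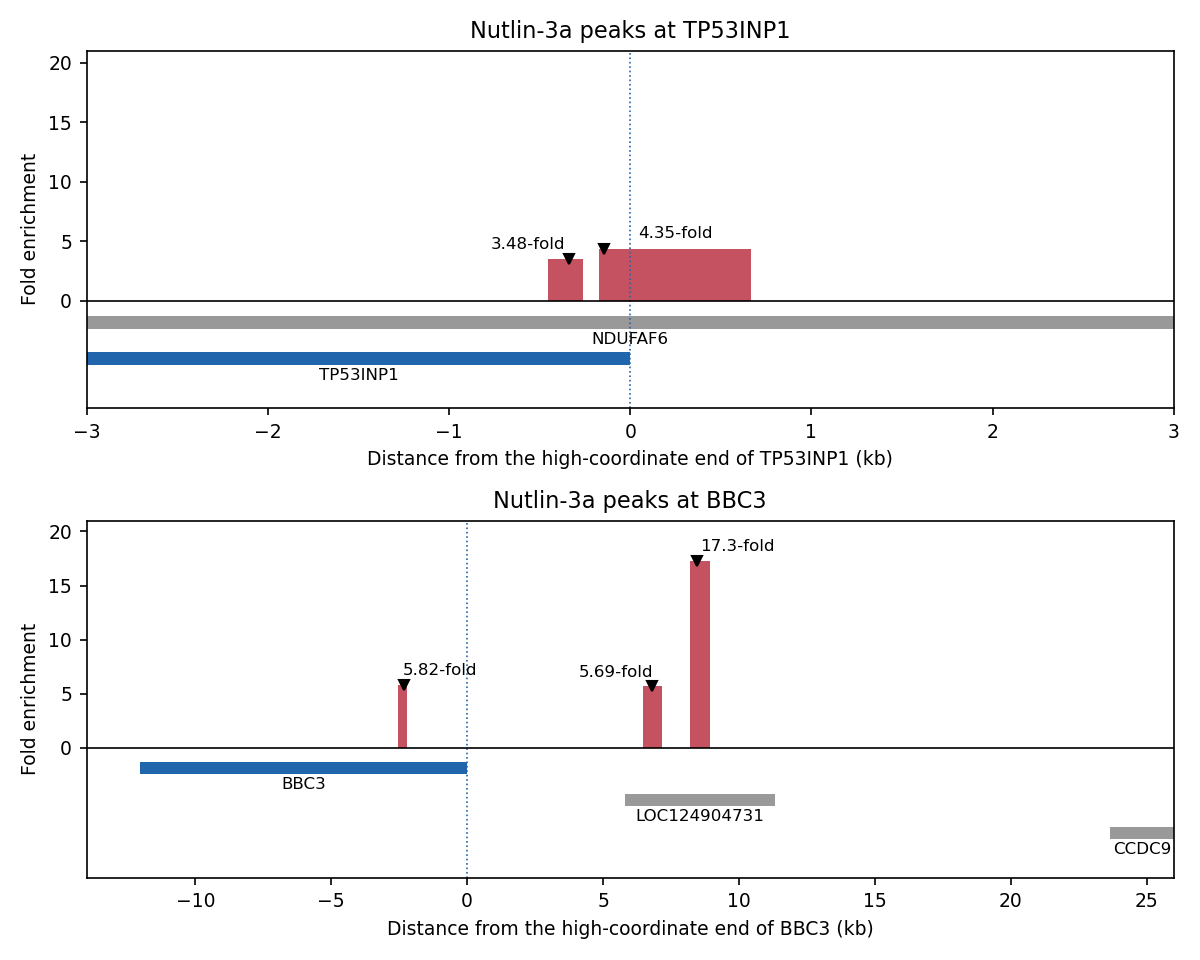
Nutlin-3a peaks near TP53INP1 (top) and BBC3 (bottom), drawn by distance in kb from the high-coordinate end of each gene (dotted line), with fold enrichment as height, summits as black triangles, the named gene in blue and neighbouring genes in grey. The TP53INP1 peaks adjoin the gene end at 3.48-fold and 4.35-fold, and the highest BBC3 peak, 17.3-fold, lies inside LOC124904731. Panels have different distance scales, and the DMSO list has no peak in either view.

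None of the BBC3 peaks reached the 1 BBC3 promoter window examined (GRCh38.p14, chr19:47232618-47232917, reverse strand). A RefSeq promoter window runs from 250 bases before to 50 bases after an annotated start. The nearest peak was 1984 bp from this window. That start lies inside the gene body as the table gives it. Only this start of BBC3 was examined, so how far the peaks lay from any other start of the gene is not known here. The 250 bases before it are printed because they show what this start without a peak reads, 5′ to 3′. They hold none of the letters GTTGCC or GTTGCT on either strand.
BBC3 start, bases -250 to -1, chr19:47232668-47232917, reverse strand: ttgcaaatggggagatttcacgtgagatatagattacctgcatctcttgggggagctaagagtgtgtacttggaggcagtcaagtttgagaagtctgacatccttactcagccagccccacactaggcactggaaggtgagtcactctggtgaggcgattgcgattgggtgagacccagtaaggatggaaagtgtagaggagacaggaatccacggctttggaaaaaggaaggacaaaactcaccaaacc

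TP53INP2 had no peak within 10 kb in either list, unlike its paralogue. The gene lies at chr20:34704344-34713436 on the forward strand, between PIGU, which encodes a subunit of the GPI transamidase, and NCOA6, which encodes a nuclear receptor coactivator. The nearest Nutlin-3a peak was at chr20:31227331-31227480, 3476864 bp away, with a fold enrichment of 3.27 and a −log10 p of 18.3. The nearest DMSO peak, at chr20:31186224-31186474, was 3517870 bp away, with a fold enrichment of 1.99 and a −log10 p of 28.6. Both lay in clusters of peaks, and DEFB115, a beta-defensin gene, was the protein-coding gene nearest to each. Chromosome 20 held 61 Nutlin-3a and 58 DMSO peaks in all. Absence from a list means that no peak was called, since signal below the threshold is not recorded in these files.

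RefSeq gives TP53INP2 2 promoter windows, and neither was overlapped by a peak. The window at the outer start (chr20:34704094-34704393) held none of the X-box letters. The window at the inner start (chr20:34704469-34704768) held GTTGCC once, on the forward strand, with its first base 82 bases before that start. The bases around the match are printed to show X-box letters at a gene start with no RFX7 peak, with the match in capitals.
TP53INP2 inner start, bases -142 to -47, chr20:34704577-34704672, forward strand: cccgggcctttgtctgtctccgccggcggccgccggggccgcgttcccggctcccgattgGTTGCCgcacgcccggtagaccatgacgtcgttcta
GTTGCC or GTTGCT, searched on both strands, stood in 8128 of 35116 promoter windows of the RefSeq table (23.1%). Of the 130 windows overlapped by a Nutlin-3a peak, 77 held them (59.2%, 95% Wilson interval 50.6 to 67.3%). Windows of neighbouring starts overlap, so they are not independent, and a match of letters is not a binding site. With the longer GTTGCTA or GTTGCCA, which contain the shorter letters, the shares were 6.75% of all windows and 27.7% of those with a peak. TP53INP2 had no match to these longer letters. No promoter window of TP53INP1 was available, so its start was not searched.

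By fold enrichment the third BBC3 peak stood near the top of the Nutlin-3a list, and by −log10 p the second TP53INP1 peak was the highest of the 5. The third BBC3 peak ranked 4 of 1234 by fold enrichment and 106 by −log10 p. The second TP53INP1 peak ranked 236 by fold enrichment and 86 by −log10 p. For the first and second BBC3 peaks the ranks were 117 and 123 by fold enrichment, and 580 and 445 by −log10 p. The first TP53INP1 peak was the weakest by either value, ranking 412 by fold enrichment and 997 by −log10 p. The list as a whole had a median fold enrichment of 2.77 (interquartile range 1.94 to 3.896) and a median −log10 p of 23.8 (11.1 to 49.3). All 5 peaks were isolated, and the 425 isolated peaks had medians of 4.005 and 13.5. The first TP53INP1 peak was below the isolated median in both values, and the other 4 members were above it in both.

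The 2 strongest members by −log10 p were read beside peaks of like −log10 p. The range of 1.2 times around each was set after the values were seen. Of 13 other isolated Nutlin-3a peaks in the range of the second TP53INP1 peak (−log10 p 121 to 174), 10 had a larger fold enrichment and 3 a smaller one, with a median of 11.7. Of 17 such peaks around the third BBC3 peak (106 to 153), 1 had a larger fold enrichment and 16 a smaller one, with a median of 9.65. These 2 peaks thus lay on opposite sides of peaks called with similar confidence. The 2 ranges overlap and each of the 2 peaks is counted in the other's set, so the comparisons are not separate. They were also the widest members, ranking 21 and 32 of 1234 by width, against a median width of 161 bp.

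**Figure D2:**
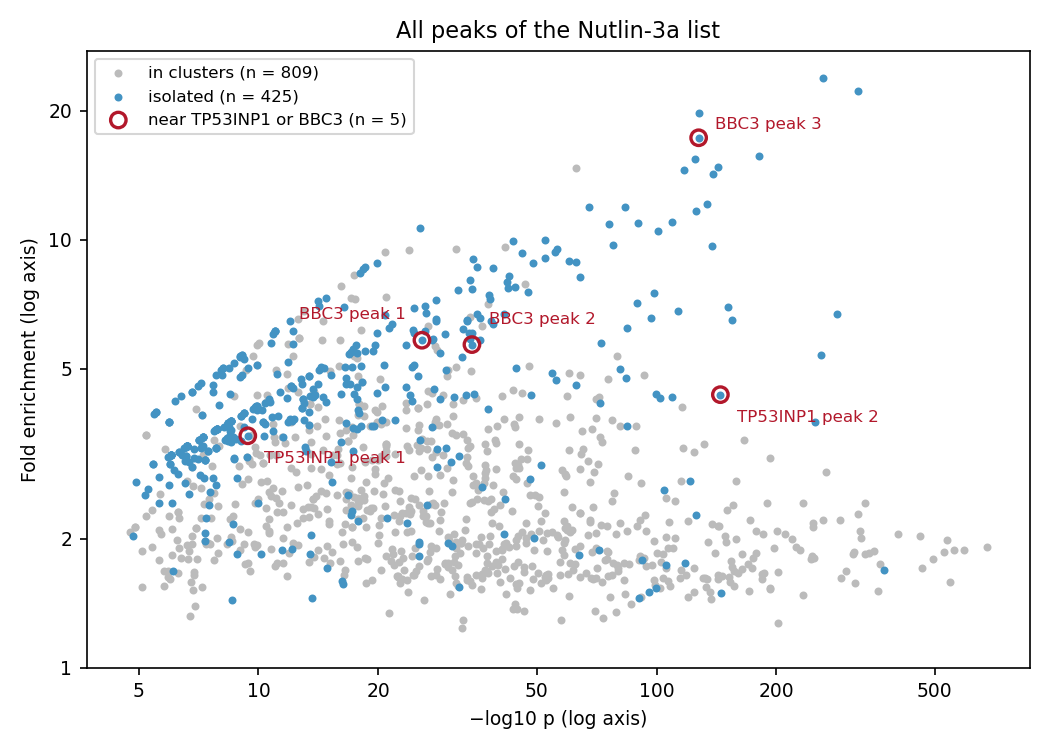
Fold enrichment against −log10 p (both on log axes) for every peak of the Nutlin-3a list, with 809 peaks in clusters in grey, 425 isolated peaks in blue and the 5 peaks near TP53INP1 or BBC3 circled in red. The third BBC3 peak lies at the upper edge, at 17.3-fold, and the second TP53INP1 peak lies below most isolated peaks of similar −log10 p.

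The TP53INP1 and BBC3 peaks differed in where they sat relative to gene ends. A protein-coding gene boundary fell inside 53 of the 425 isolated Nutlin-3a peaks, the second TP53INP1 peak among them, and these 53 had a median fold enrichment of 5.44 and a median −log10 p of 38.5. Within the 53 that peak ranked 3 by −log10 p and 38 by fold enrichment. By summit, both TP53INP1 peaks were among 101 isolated peaks within 1000 bp of a protein-coding boundary, a class with a median fold enrichment of 5.08. All 3 BBC3 summits were among 65 isolated summits over 1000 and up to 10000 bp away from any protein-coding boundary, a class with a median fold enrichment of 4.53. Within the 65 the third BBC3 peak ranked 2 by fold enrichment and 4 by −log10 p. Ranked by fold enrichment, the top 20 peaks of this list comprised 11 with a summit at most 1000 bp from such a boundary, 4 at up to 10000 bp, and 5 farther away. The third BBC3 peak was the only one of these 20 with another listed peak within 10 kb.

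Having a peak nearby was uncommon for a gene, and having several was more so. In the Nutlin-3a list 270 of 20037 protein-coding genes (1.35%, 95% Wilson interval 1.197 to 1.52%) had at least 1 peak within 10 kb, as did 2 of the 3 genes described here. In the DMSO list 13 genes (0.0649%) did, and 0 of the 3. At least 2 Nutlin-3a peaks within 10 kb were found for 24 genes (0.12%), among them TP53INP1 with NDUFAF6 around it, and at least 3 for 6 genes (0.0299%). BBC3 was 1 of the 4 genes in this last group whose peaks were all isolated, with CCND1, DUX4 and NRG3. Of the 425 isolated peaks 14 (3.29%) had another peak at most 100 bp away, as the TP53INP1 peaks had, and 51 (12.0%) had another within 10 kb. The genes were chosen for these peaks, so their own counts carry no weight against these shares.

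In the DMSO list the surroundings of all 3 genes were empty over megabases. The nearest DMSO peak to TP53INP1 was at chr8:83700620-83700702, 11225270 bp away, with a fold enrichment of 4.89. For BBC3 it was at chr19:37798044-37798193, 9422631 bp away, with a fold enrichment of 4.80. Few DMSO peaks lay on these chromosomes at all, 4 on chromosome 8 and 2 on chromosome 19, against 15 and 17 in the Nutlin-3a list. None of the 5 member peaks overlapped a DMSO peak, a state they shared with 72.7% of all Nutlin-3a peaks and 91.8% of the isolated ones. The Nutlin-3a list was also the longer one, and library depth is unknown from these lists, so a difference in RFX7 binding and a difference in the sensitivity of the experiments cannot be told apart. The members were bounded by wide gaps in the Nutlin-3a list too. The member farthest from its gene was the third BBC3 peak, at 8195 bp, and the nearest Nutlin-3a peaks beyond 10 kb were 2636662 bp from BBC3 (2.73-fold, within AKT1S1) and 6176948 bp from TP53INP1 (3.78-fold).

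Other genes of these pathways had no peak within 10 kb in either list. The lists held 24 cell death genes of the p53 and BCL2 pathways and 20 autophagy genes. A further 9 genes were grouped loosely as p53 regulators or partners, with CDKN1A among them. Of these 53 genes, 0 had a Nutlin-3a peak within 10 kb and 0 a DMSO peak, and a count of 0 allows a share of up to 5.66%. That limit lies above the 1.35% and 0.0649% of all protein-coding genes, so a share like that of other genes is not distinguishable here. Nearest Nutlin-3a peaks were a median 1.89 Mb away for the cell death genes, 3.27 Mb for the autophagy genes and 2.93 Mb for the p53 regulators or partners, beside 2.53 Mb for all protein-coding genes. In the DMSO list these medians were 20.8, 24.5 and 31.5 Mb, beside 21.3 Mb.

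Well-known genes of the same death and autophagy pathways were among those without a near peak. The nearest Nutlin-3a peak was 907724 bp from BAX, a pore-forming effector, and 600327 bp from BAK1, the other effector. It was 4313138 bp from PMAIP1, which encodes the BH3-only protein NOXA, and 3289755 bp from FAS, a death receptor gene. Among autophagy genes, MAP1LC3A, which encodes an LC3 protein, had its nearest Nutlin-3a peak 3319364 bp away. Of the genes grouped loosely as regulators or partners, CDKN1A, which encodes the cell cycle inhibitor p21, had its nearest Nutlin-3a peak 297263 bp away.

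Of the listed genes, 2 had a Nutlin-3a peak not far beyond 10 kb, and they are named because of that distance. For MCL1, a prosurvival BCL2 family gene, a peak (6.57-fold, −log10 p 96.8) lay 11624 bp away, but it was 911 bp from ADAMTSL4. For SESN2, a stress-induced inhibitor of mTORC1 signalling, a peak (3.78-fold, −log10 p 8.53) lay 11165 bp away, with ATP5IF1 nearer at 9946 bp. Both of these peaks thus had another protein-coding gene closer than the listed gene. Within 100 kb of a Nutlin-3a peak there were 2 of the 53 listed genes, beside 4.49% of all protein-coding genes. For DMSO peaks it was 1 of the 53, beside 0.319%. In the DMSO list the closest was a peak 99344 bp from HRK, a BH3-only gene, and it lay inside RNFT2.

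**Figure D3:**
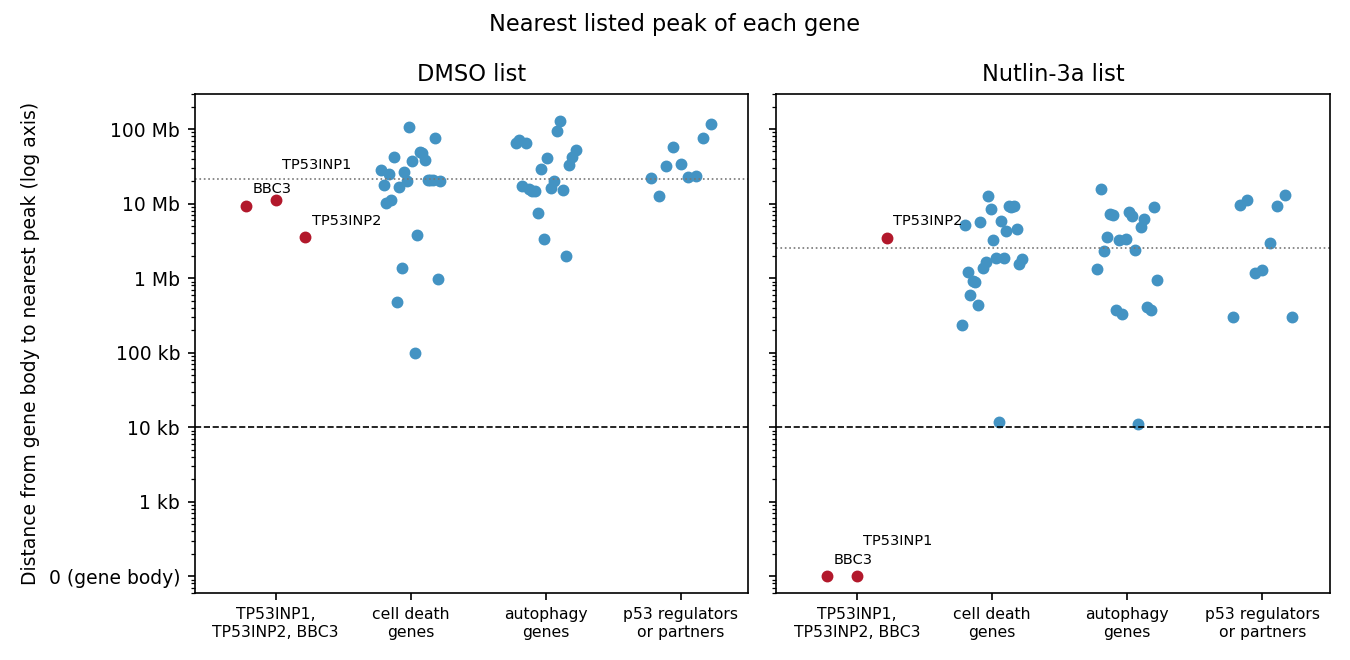
Distance from each gene body to the nearest peak (log axis, a distance of 0 drawn at the bottom) in the DMSO list (left) and the Nutlin-3a list (right), for TP53INP1, TP53INP2 and BBC3 in red and 53 listed pathway genes in blue. The dashed line marks 10 kb and the dotted line the median over all protein-coding genes. In the Nutlin-3a list TP53INP1 and BBC3 are the genes below the dashed line, and in the DMSO list no gene is.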

How the data were processed

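Per the labels, the 8 samples form 4 groups of 2, RFX7 ChIP and input for each treatment, and groups were taken from sample titles. The 2 peak lists, in narrowPeak layout, belong to the RFX7 ChIP groups, and no file held values of a single sample. Per the submitters' processing notes the build was hg38, and MACS2 2.2.7.1, bedtools 2.29.2, SAMtools 1.10, Picard, Trimmomatic 0.39 and cutadapt 2.10 were used. The aligner, the control and how the 2 replicates were combined are not given in the sources used here. The authors deposited fold enrichment as a linear ratio, p and q as −log10 values, an integer score, which was not used, and a summit offset. Values of a peak were read within its own list only. Depth is unknown, so no count of reads stands behind a value.

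Distances were computed with Python 3.11.15 and pandas 2.3.3 from the nearer edge of a peak to a gene body of the RefSeq table of GRCh38.p14, in which all 3 genes and all 53 listed genes were found by symbol. A further gene planned for these lists is not reported here. Positions are 1-based. Isolation was counted over the peaks of both lists, merged where they overlapped. Peaks of the 2 lists were shared where they overlapped by at least 1 bp. The distance and letter-search functions were tested on simulated data. Members, gene lists and rules were chosen with earlier results of these data known. Genes named by rule are the members, genes nearer to a member peak than its member gene, and listed genes with a peak within 10 kb, of which there were none. Other listed genes, flanking genes, genes with several peaks and genes near the other peaks described were named after their values were seen. The letters of the peaks themselves were not analysed here. Other windows, summit or middle in place of the edge, a −log10 q of at least 5 and other overlap rules were tried as alternatives. Confidence intervals are 95% Wilson intervals and, like the limit from 3 counts for a count of 0, cover counting error only.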

Additional observations from a re-analysis of the deposited data

How the results depend on the processing

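No paired analysis was possible because the files give a single list of peaks for the 2 replicates of a treatment, and no replicate could be left out for that reason. Of 72 alternative values 11 moved and 61 did not. A move was a count, distance or rank changed by over 1.5 times, or a share beyond its 95% Wilson interval. Many of the 61 could not move, so the tally is no measure of robustness. Where a member gene had 0 peaks in a list, the nearest peak lay 3476864 bp or more away, beyond every window tried. With a 5 kb window BBC3 kept 1 Nutlin-3a peak in place of 3, since the other 2 lie beyond that window by construction. Windows of 20 and 50 kb and distances from summit or middle changed no count of member peaks at any of the 3 genes. A −log10 q of at least 5 changed none either, but the first TP53INP1 peak passed it narrowly, at 5.17. The overlap rules tried left 0 members shared, and could not do otherwise, since each member was 9432119 bp or more from any DMSO peak. Ranks depended on the measure. Ordered by −log10 p, the TP53INP1 peaks ranked 997 and 86 (412 and 236 by fold enrichment), and the BBC3 peaks 580, 445 and 106 (117, 123 and 4). The cause was not tested. The share of protein-coding genes near a Nutlin-3a peak was 1.16% within 5 kb, 1.74% within 20 kb and 1.09% with a −log10 q of at least 5. For DMSO peaks it was 0.1098% within 20 kb against 0.0649% within 10 kb, a larger ratio but inside the wide interval of that share (0.0379 to 0.111%). Within 20 kb, 2 of the 53 listed genes, MCL1 and SESN2, had a Nutlin-3a peak, beside 1.74% of all protein-coding genes. With GTTGCTA or GTTGCCA, 0 in place of 1 of the 3 promoter windows of BBC3 and TP53INP2 had a match. The planned letter search inside member peaks was not run. Unknown depth limits every absence from the DMSO list.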
